A study of Glycine max with 16 samples.

Results

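The transcripts described here are those of 6 genes that the study placed at the centre of a gene regulatory network of soybean leaves, the most connected genes of that network apart from the clock gene PRR5. They were taken by locus name from the table of read counts and are 6 of its 56044 genes. They are the transcription factors YABBY (Glyma.17G138200) and SHN2 (Glyma.17G210500), the aquaporin PIP2;4 (Glyma.11G146500), the lipid kinase PIP5K (Glyma.03G186300), the leucine-rich repeat gene LRRNT_2 (Glyma.20G143600) and PHNP (Glyma.02G176100), whose product resembles ribonuclease Z. By their locus names, YABBY and SHN2 lie on chromosome 17, PIP2;4 on chromosome 11, PIP5K on chromosome 3, LRRNT_2 on chromosome 20 and PHNP on chromosome 2.

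Leaves were taken at 8:00, 11:00, 14:00 and 17:00 from 4 field plots of soybean (Glycine max) cultivar 93B15 during seed fill, with 1 library per plot and time point and therefore 16 libraries in all. Each library pooled the leaflets of an uppermost, fully expanded leaf. Every plot had its own sampling day, so plot and day cannot be told apart, and the plots are the replicates of each time point. Between 14968570 and 25691784 reads per library were assigned to genes (median 21411331). Abundance is given as CPM (reads of a gene relative to the size of its library) after TMM scaling, which adjusts the library totals for differences in composition. CPM is not corrected for transcript length, so levels are compared within a gene and not between genes. The leaf origin of the libraries was visible in a Rubisco small chain gene, Glyma.13G046200, at 4105 to 14491 CPM. A chlorophyll a/b binding gene, Glyma.08G082900, lay at 1383 to 11148 CPM. Glyma.02G080800, also taken as a leaf marker, was scarce by contrast, at 0.137 to 5.66 CPM.

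The hub genes belong to several layers of leaf function. YABBY proteins are plant-specific transcription factors known for setting the lower side of lateral organs, and SHINE (SHN) proteins are factors of the AP2/ERF family that, in Arabidopsis, activate the synthesis of cutin and wax. PIP aquaporins are water channels of the plasma membrane, and phosphatidylinositol-4-phosphate 5-kinases (PIP5K) make the membrane lipid phosphatidylinositol 4,5-bisphosphate, which takes part in vesicle traffic and the cytoskeleton. Leucine-rich repeats are protein modules that bind other molecules, and ribonuclease Z trims the ends of transfer RNA precursors. The study had chosen the hubs on these same libraries, from genes that changed strongly over the day. Their courses between time points are therefore a description of how they behave, and their calls are not independent evidence of a change.

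Over the day, 5 of the 6 hub transcripts were less abundant at 17:00 than at 8:00 and 1, PIP2;4, was more abundant. In RNA from whole leaflets, fewer cells that make a transcript and less of it per cell cannot be told apart. Calls between time points required an adjusted p under 0.05 in edgeR's quasi-likelihood test over the 4 hours, together with a change of 1 or more on the log2 scale between any pair of them. All 6 hubs were called, beside 33.8% of the 36059 genes tested. At a stricter threshold (adjusted p under 0.0001, change of 2 or more on the log2 scale), PHNP was not called and the other 5 were, beside 7.09% of all genes. That stricter count was 1 without plot 1, 3 without plot 3, 3 without plot 4 and 3 with plot left out of the model.

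**Figure D1:**
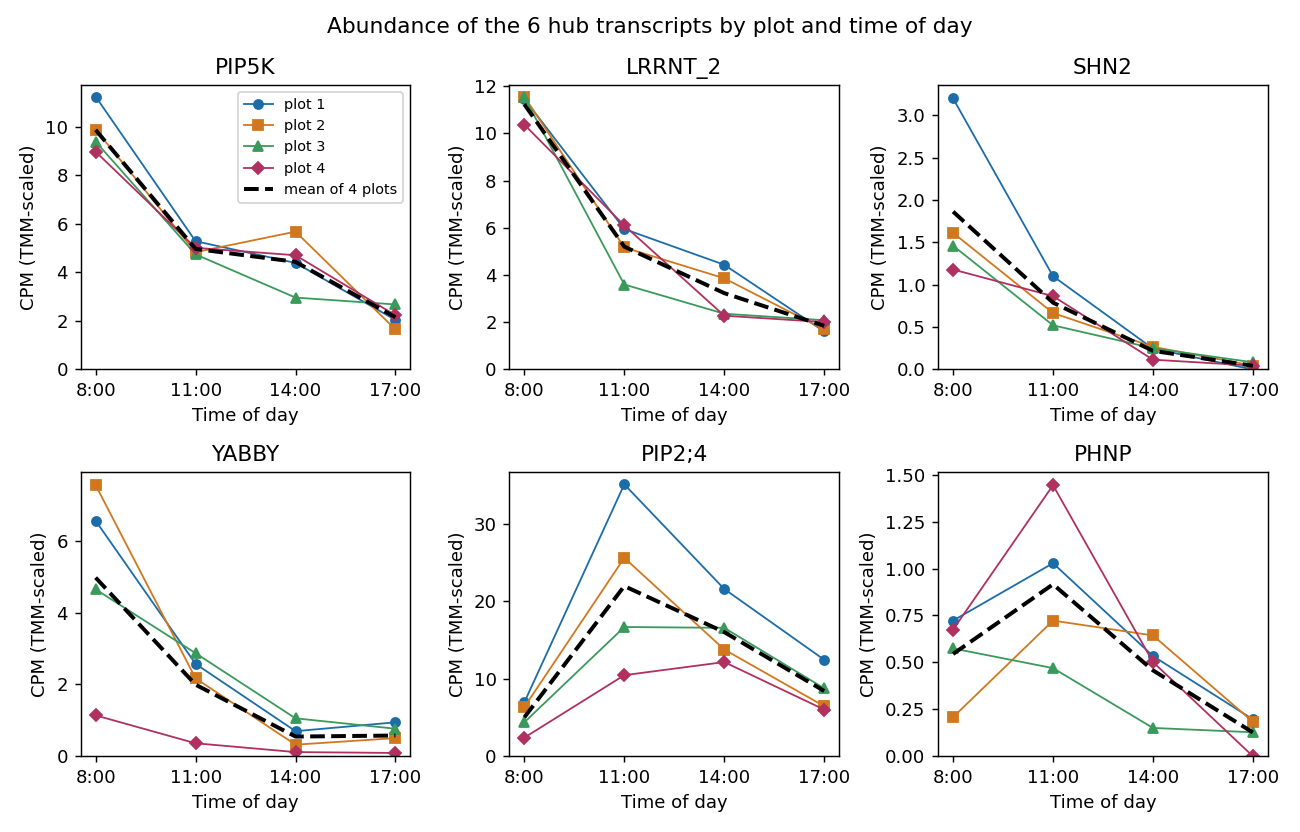
TMM-scaled CPM (y axis, from 0, a separate scale for each gene) of the 6 hub transcripts against time of day (x axis). Each coloured line is 1 plot and the dashed black line is the mean of the 4 plots. PIP5K, LRRNT_2, SHN2 and YABBY were highest at 8:00 in every plot, PIP2;4 was lowest at 8:00 in every plot, and PHNP was highest at 11:00 in 3 of 4 plots.

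PIP5K declined in 2 steps separated by a level stretch. Its transcript stood at 11.3, 9.89, 9.39 and 8.98 CPM in plots 1 to 4 at 8:00, and at 5.29, 4.84, 4.75 and 5.02 CPM at 11:00. At 14:00 it had 4.39, 5.68, 2.96 and 4.71 CPM, and at 17:00 it had 2.04, 1.65, 2.68 and 2.24 CPM. The libraries of 8:00 lay above all others and those of 17:00 below all others, while those of 11:00 and 14:00 overlapped. The means were 9.88 ± 0.988, 4.97 ± 0.240, 4.44 ± 1.13 and 2.15 ± 0.429 CPM from 8:00 to 17:00 (SD, n = 4 each). The transcript was lower at 11:00 than at 8:00 by a log2 fold change of -0.99 (SE 0.19, edgeR adjusted p = 0.00212), in 4 of 4 plots. Between 14:00 and 11:00 the log2 fold change was -0.17 (SE 0.20, edgeR adjusted p = 0.630), so that these neighbours did not differ beyond their spread. From there the level at 17:00 was lower than at 14:00 by a log2 fold change of -1.03 (SE 0.20, edgeR adjusted p = 0.00408), again in 4 of 4 plots. Across the whole day the log2 fold change of 17:00 against 8:00 was -2.19 (SE 0.20), or 4.55-fold lower.

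LRRNT_2, whose annotation is of a protein that binds carbohydrate in the endoplasmic reticulum, followed a more even descent. At 8:00 its 4 plots were close together at 11.5, 11.6, 11.5 and 10.4 CPM. The values at 11:00 were 5.95, 5.17, 3.60 and 6.10 CPM. By 14:00 they were 4.44, 3.86, 2.36 and 2.28 CPM, and at 17:00 they were 1.61, 1.70, 2.09 and 2.01 CPM. The libraries of 8:00 and of 17:00 stood clear of the rest, and only the ranges of 11:00 and 14:00 overlapped. Mean abundance was 11.2 ± 0.574, 5.20 ± 1.15, 3.23 ± 1.08 and 1.85 ± 0.232 CPM in the order of the day (SD, n = 4 each). The log2 fold change of 17:00 against 8:00 was -2.59 (SE 0.23), a 6.03-fold lower level. Each step passed the test in edgeR: the log2 fold change was -1.12 for 11:00 against 8:00 (adjusted p = 0.00173), -0.70 for 14:00 against 11:00 (adjusted p = 0.0469) and -0.77 for 17:00 against 14:00 (adjusted p = 0.0375). The middle step was the least secure, since it missed the threshold without any 1 of the 4 plots, where its log2 fold change was between -0.82 and -0.46, without TMM scaling (-0.50), with no filter on low counts (-0.70), without the library of plot 2 at 8:00 (-0.70) and with plot left out of the model (-0.69). The last step missed it without plot 1 (-0.52), without plot 2 (-0.66) and without TMM scaling (-0.69).

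SHN2 had the steepest course of the 6 and the fewest reads late in the day. Its transcript was at 3.20, 1.61, 1.46 and 1.18 CPM at 8:00 and at 1.10, 0.667, 0.522 and 0.866 CPM at 11:00. At 14:00 it was at 0.246, 0.268, 0.251 and 0.116 CPM. At 17:00 it was at 0, 0.0458, 0.0851 and 0.0456 CPM, and no library of one time point reached the range of the next. The counts summed over the 4 plots were 149, 61, 19 and 4 reads in the order of the day. The lowest library of 14:00, plot 4, held 3 reads and the highest of 17:00, plot 3, held 2 reads. The 0 in plot 1 at 17:00 allows up to 0.118 CPM, the value of 3 counts in that library. That bound is above the lowest value of 14:00, so the gap between these 2 time points is not secure against counting error. On the summed counts, scaled by library size, SHN2 was 42.4-fold lower at 17:00 than at 8:00, with a 95% exact interval for counting error alone of 16.2-fold to 158-fold. The edgeR test gave a log2 fold change of -1.16 for 11:00 against 8:00 (SE 0.37, adjusted p = 0.0344), -1.86 for 14:00 against 11:00 (SE 0.44, adjusted p = 0.0127) and -2.16 for 17:00 against 14:00 (SE 0.65, adjusted p = 0.0395). All 3 were lower in 4 of 4 plots. The first step lost its call without plot 1 (-1.004), plot 2 (-1.12) or plot 3 (-1.09), without the library of plot 2 at 8:00 (-1.20) and in limma (-1.14). The last step lost its call without any 1 plot (-2.62 to -1.69), and the middle step without plot 4 (-1.53).

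YABBY dropped through the morning and then stayed low. Plots 1 to 4 had 6.55, 7.55, 4.64 and 1.14 CPM at 8:00 and 2.57, 2.17, 2.87 and 0.361 CPM at 11:00. They had 0.698, 0.322, 1.06 and 0.116 CPM at 14:00 and 0.943, 0.504, 0.766 and 0.0913 CPM at 17:00. The ranges of successive time points overlapped, since plot 4 lay far below the other plots, while every plot alone was lower at 11:00 than at 8:00 and lower at 14:00 than at 11:00. The means were 4.97 ± 2.82, 1.99 ± 1.12, 0.548 ± 0.415 and 0.576 ± 0.370 CPM in the order of the day (SD, n = 4 each). The test with plot in the model gave a log2 fold change of -1.39 for 11:00 against 8:00 (SE 0.28, edgeR adjusted p = 0.00272) and of -1.84 for 14:00 against 11:00 (SE 0.33, edgeR adjusted p = 0.00212), each lower in 4 of 4 plots. With plot left out of the model, neither step passed (-1.34 and -1.85). From 14:00 on there was no detectable step: 17:00 against 14:00 gave a log2 fold change of 0.07 (SE 0.35, edgeR adjusted p = 0.924), with 2 plots higher and 2 lower. At 17:00 YABBY was 8.97-fold lower than at 8:00, a log2 fold change of -3.17 (SE 0.31).

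PIP2;4 was the one hub whose transcript was lowest in the early morning. It had 6.97, 6.35, 4.38 and 2.40 CPM at 8:00 and 35.1, 25.6, 16.7 and 10.5 CPM at 11:00. The later values were 21.6, 13.8, 16.6 and 12.2 CPM at 14:00 and 12.5, 6.46, 8.77 and 6.02 CPM at 17:00. Every library of 11:00 and 14:00 exceeded every library of 8:00, but 17:00 overlapped with 8:00. Means ran 5.03 ± 2.07, 22.0 ± 10.7, 16.0 ± 4.14 and 8.43 ± 2.94 CPM (SD, n = 4 each). The aquaporin transcript rose 4.27-fold by 11:00 compared with 8:00, a log2 fold change of 2.09 (SE 0.21, edgeR adjusted p = 1.72e-05), in 4 of 4 plots. The 14:00 level did not differ from that of 11:00 beyond the spread (log2 fold change -0.35, SE 0.19, edgeR adjusted p = 0.261), and the highest value fell at 11:00 in plots 1 to 3 and at 14:00 in plot 4. It was lower at 17:00 than at 14:00 by a log2 fold change of -0.95 (SE 0.20, edgeR adjusted p = 0.00540), a step that missed the threshold with plot left out of the model (-0.93). At 17:00 it was still above its 8:00 level, by a log2 fold change of 0.79 (SE 0.21, edgeR adjusted p = 0.00560), although this difference missed the threshold without plot 3 (0.65) and with plot left out of the model (0.75).

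PHNP was the scarcest hub transcript, with 174 reads over all 16 libraries and 0 to 40 in any library. Its values were 0.723, 0.208, 0.574 and 0.674 CPM at 8:00 and 1.03, 0.723, 0.469 and 1.44 CPM at 11:00. They were 0.534, 0.643, 0.151 and 0.502 CPM at 14:00 and 0.197, 0.183, 0.128 and 0 CPM at 17:00. All libraries of 17:00 lay below all libraries of 8:00 and 11:00, and the first 3 time points overlapped one another. The summed reads were 45, 76, 41 and 12 in the order of the day, and the 0 in plot 4 at 17:00 allows up to 0.137 CPM. In edgeR the transcript was lower at 17:00 than at 11:00 by a log2 fold change of -2.74 (SE 0.61, adjusted p = 0.00317) and lower at 17:00 than at 8:00 by -2.03 (SE 0.63, adjusted p = 0.0150), each in 4 of 4 plots. None of the successive steps passed: the log2 fold change was 0.71 for 11:00 against 8:00 (adjusted p = 0.352), -1.003 for 14:00 against 11:00 (adjusted p = 0.233) and -1.74 for 17:00 against 14:00 (adjusted p = 0.0835). PHNP lost its call between time points without plot 1, where its largest log2 fold change was 2.91, and without plot 4, where it was 2.07. The difference of 17:00 against 8:00 was lost in the same 2 cases (-2.14 without plot 1 and -1.56 without plot 4).

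**Figure D2:**
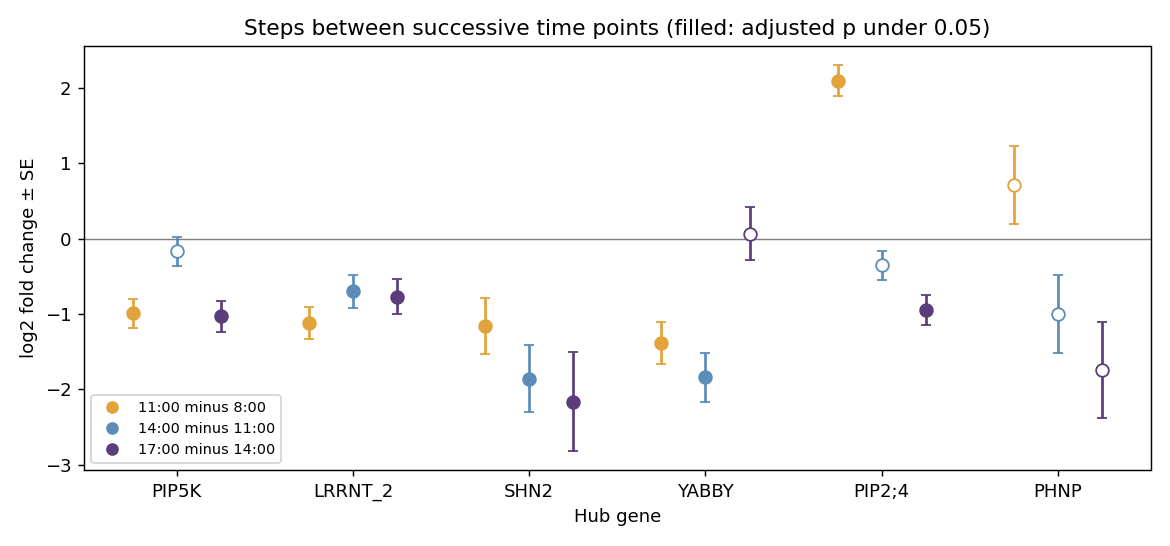
Log2 fold change (y axis, with its SE as the bar) of each hub transcript (x axis) for the steps from 8:00 to 11:00, 11:00 to 14:00 and 14:00 to 17:00, later minus earlier. Filled points passed an adjusted p of 0.05 in edgeR and open points did not; PIP2;4 is the only hub with a filled point above 0, and SHN2 and LRRNT_2 the only ones with 3 filled points.

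Set side by side, the pairs of time points called different numbers of hubs. For 11:00 against 8:00, PIP2;4 was higher (12.4% of all genes were called higher) and YABBY, SHN2, PIP5K and LRRNT_2 were lower (11.1% lower). For 14:00 against 8:00 the same 5 genes were called, with log2 fold changes of 1.74 for PIP2;4, -3.23 for YABBY, -3.02 for SHN2, -1.82 for LRRNT_2 and -1.16 for PIP5K (22.4% of all genes higher and 21.1% lower). For 17:00 against 8:00 all 6 were called, PIP2;4 higher (27.1%) and the other 5 lower (23.8%). For 17:00 against 11:00 all 6 were lower (15.9% of all genes lower and 17.5% higher), with log2 fold changes between -4.02 for SHN2 and -1.20 for PIP5K. The YABBY call of this pair was lost with plot left out of the model (-1.74). Over the middle of the day, 14:00 against 11:00, only YABBY, SHN2 and LRRNT_2 were called, all lower (6.72% of all genes lower and 7.33% higher). In the afternoon, 17:00 against 14:00, PIP5K, PIP2;4, SHN2 and LRRNT_2 were called, all lower (8.2% of all genes lower and 6.38% higher).

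The network had been inferred from all 16 libraries, so differences among plots may also have entered the choice of the hubs, and the plot comparison is not independent of it. It called 2 of the 6 hub genes, YABBY and PIP2;4, at an adjusted p under 0.05 over the 4 plots and a log2 difference of at least 1, beside 6.31% of all genes. YABBY had a largest log2 difference of 2.74 between plots (edgeR adjusted p = 0.00144) and ranked 162 of 36059 genes by its p. It was the lowest in plot 4 at all 4 time points, at a mean of 0.427 CPM in plot 4, against 2.69 CPM in plot 1, 2.64 CPM in plot 2 and 2.33 CPM in plot 3. Plot 1 was 6.67-fold, plot 2 5.34-fold and plot 3 6.58-fold above plot 4. Among plots 1 to 3 no such difference was detected: without plot 4 the largest log2 difference of YABBY was 0.30 and it was not called. PIP2;4 was graded among the plots, highest in plot 1 and lowest in plot 4 at all 4 time points, with means of 19.04, 13.1, 11.6 and 7.76 CPM in plots 1 to 4. Its largest log2 difference was 1.26 (edgeR adjusted p = 0.00819), which is plot 1 over plot 4, and it was not called without plot 1 (0.75) or without plot 4 (0.64).

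Plot 4 was also the lowest plot at every hour for all the leaf genes given above. The scarce one, Glyma.02G080800, had 0.137 to 0.614 CPM in plot 4, against 0.261 to 5.66 CPM in plots 1 to 3. The Rubisco small chain gene had 4105 to 7724 CPM in plot 4, against 5776 to 14491 CPM in plots 1 to 3, and the chlorophyll a/b binding gene 1383 to 5698 CPM in plot 4, against 2484 to 11148 CPM in the others. The annotation used here covered only genes that varied strongly among plots, so leaf genes found through it are no independent measure of plot 4. The part of the low leaf genes in the low YABBY and PIP2;4 levels was not tested. Of all 36059 genes, 3.35% were lowest in plot 4 at all 4 time points and 3.41% were highest there. The other 4 hubs had no plot that was consistently high or low. Their largest log2 differences between plots were 0.14 for PIP5K, 0.31 for LRRNT_2, 0.78 for SHN2 and 0.88 for PHNP, with edgeR adjusted p of 0.946, 0.690, 0.497 and 0.618.

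**Figure D3:**
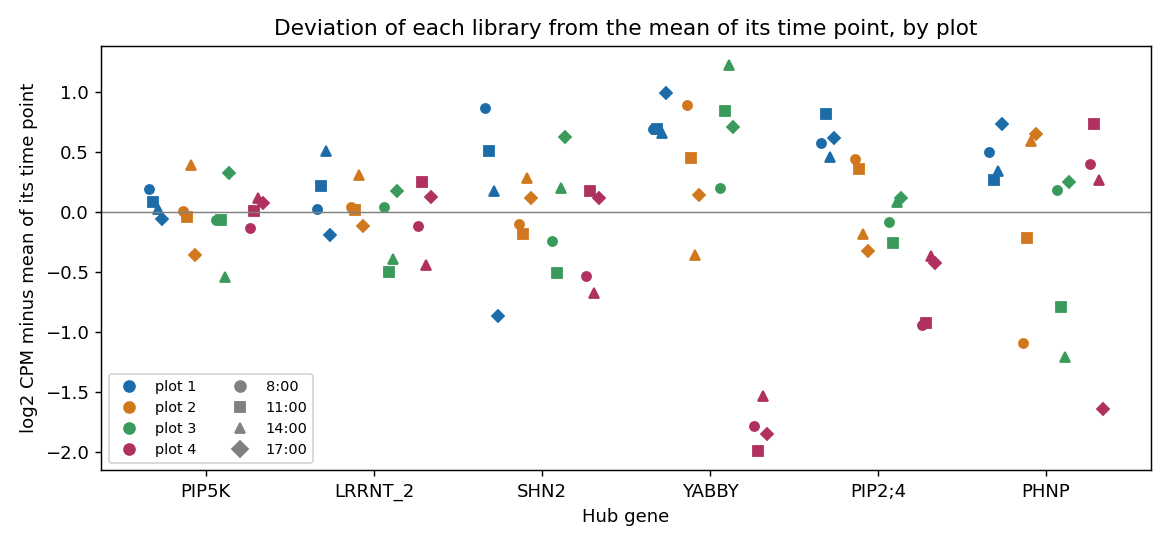
Log2 CPM of each library minus the mean of its time point (y axis; CPM computed with a prior count of 1) for the 6 hub genes (x axis), coloured by plot and shaped by time of day. The 4 libraries of plot 4 lie between -1.99 and -1.53 for YABBY, below every other library of that gene. For PIP2;4 the libraries of plot 1 lie highest and those of plot 4 lowest at every hour.

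The study linked these hubs to 93 distinct genes, which it had selected on the same libraries among strongly changed genes. PHNP had 31 of these partners, PIP5K 20, PIP2;4 18, SHN2 11, LRRNT_2 11 and YABBY 10. All 93 were called between time points, as their selection implies. For 17:00 against 8:00, 35 partners were called higher and 58 lower, while 27.1% of all genes were called higher and 23.8% lower. The median log2 fold change of the partners was -2.21, beside 0.06 over all genes. As the partners were selected for large changes, the size of that median was set by the selection. Every hub had partners in both directions: 13 higher and 18 lower for PHNP, 9 and 11 for PIP5K, 6 and 12 for PIP2;4, and 3 higher for each of YABBY, SHN2 and LRRNT_2, with 7, 8 and 8 lower. By mean CPM, 53 partners (57.0%) were highest at 8:00, 6 (6.45%) at 11:00, 13 (14.0%) at 14:00 and 21 (22.6%) at 17:00. The shares in the same order were 49.4%, 5.39%, 9.38% and 35.8% of the 2558 genes past the stricter threshold. Among all genes tested they were 33.5%, 14.1%, 18.4% and 34.0%. Of the 18 partners of PIP2;4, 8 were highest at 8:00, 4 at 11:00, 4 at 14:00 and 2 at 17:00.

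The hubs are also joined among themselves. PIP2;4 and YABBY are partners of each other, and LRRNT_2 is a partner of both PIP5K and SHN2. Over the 16 libraries, which share time points and plots, the log2 CPM of LRRNT_2 had a Pearson r of 0.94 with that of PIP5K and of 0.95 with that of SHN2, and PIP5K and SHN2 had an r of 0.91. These 3 genes share their descent through the day. PIP2;4 and YABBY did not run together over the day, with an r of -0.02. After the means of time points and the means of plots were both removed, the r of what was left in each library was 0.57. That value does not measure differences among plots. The same measure was 0.59 for SHN2 with LRRNT_2 and 0.47 for PIP5K with LRRNT_2. For pairs of these hubs that are not linked, it ran from -0.58 (PHNP with PIP2;4) to 0.31 (PIP5K with SHN2). The study inferred the links from these same libraries, so the values are no test of the links.

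The partners differed by hub in how far they varied among plots. For YABBY, 8 of 10 partners were called between plots, which is 80%, beside 6.31% of all genes. The count was 0 of 10 without plot 4, where 3 of 10 had an unadjusted p under 0.05. Plot 4 was the lowest at every hour in 8 of these 10 partners and the highest at every hour in 1, Glyma.13G319900, which had a mean of 20.1 CPM in plot 4, against 8.42 CPM in plots 1 to 3. The abundant partner Glyma.05G029900 went the other way, with a mean of 94.3 CPM in plot 4, against 204 CPM in plots 1 to 3. PIP2;4 itself is one of the 8. Of the other hubs' partners, 4 of 18 were called between plots for PIP2;4 (1 of 18 without plot 4, 2 without plot 1), 2 of 20 for PIP5K (0 without plot 2 or plot 4, 1 without plot 1) and 1 of 11 for LRRNT_2 (0 without plot 1, 2 or 3 and in DESeq2). The edgeR count was 0 of 31 for PHNP, of which 6 had an unadjusted p under 0.05, and DESeq2 and limma also gave 0. It was 0 of 11 for SHN2, of which 1 had an unadjusted p under 0.05, with 1 in DESeq2 and 0 in limma. Since the links were inferred by the study from these libraries, the share of YABBY partners that vary by plot describes the list and is no test of the links.

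**Figure D4:**
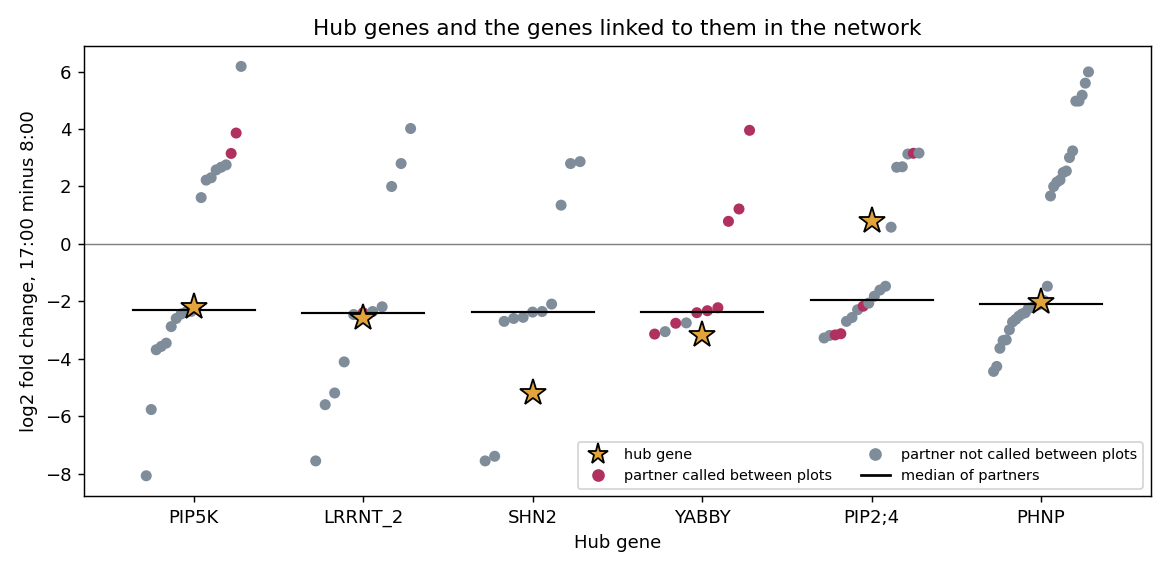
Log2 fold change of 17:00 against 8:00 (y axis) for each hub (star) and the genes the study linked to it (points, sorted within each hub on the x axis), with the partners' median as a black line. Partners called between plots are red and cluster under YABBY, where they are 8 of 10; PIP2;4 is the only hub above 0, while the median of its partners is -1.94.

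Apart from LRRNT_2, 7 genes were partners of more than 1 hub. LRRNT_2 and SHN2 shared 3 of them. Glyma.20G145800 had means of 18.7 ± 0.569, 9.65 ± 1.68, 8.57 ± 1.53 and 3.66 ± 0.335 CPM from 8:00 to 17:00 (SD, n = 4 each), a course like that of PIP5K, with which its r was 0.96. Glyma.06G019000 was detected with 87 reads at 8:00 and with 0 reads in the 4 libraries of 17:00. Counted at a floor of 3 reads over the group, it was at least 32.98-fold lower at 17:00 than at 8:00. Glyma.19G201300 moved opposite to these 2, with 1.04 ± 0.229, 3.53 ± 0.762, 7.13 ± 0.740 and 7.41 ± 2.32 CPM, and was higher at 17:00 than at 8:00 by a log2 fold change of 2.80 (SE 0.24, edgeR adjusted p = 3.54e-07). Glyma.13G120500, shared by LRRNT_2 and PHNP, was higher at 17:00 than at 8:00 by a log2 fold change of 2.00 (SE 0.22, edgeR adjusted p = 3.27e-06), after a lower level at 11:00 (log2 fold change -0.74, edgeR adjusted p = 0.0364). The remaining 3, Glyma.04G198600, Glyma.05G245300 and Glyma.08G070800, were lower at 17:00 than at 8:00, by log2 fold changes of -2.44, -2.69 and -1.47. Apart from the hubs among them, none of the 93 partners carried a gene description in the sources used here.

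The transcripts most like each hub were found by Pearson r of log2 CPM over the 16 libraries, among genes with a mean of at least 1 CPM. LRRNT_2 had its closest match in Glyma.19G240700 (r = 0.97), PIP5K in Glyma.07G086500 (r = 0.97) and SHN2 in Glyma.13G062500 (r = 0.96). The third gene for SHN2, Glyma.12G234500, had means of 85.6, 21.3, 2.55 and 0.281 CPM from 8:00 to 17:00. YABBY was most like its own partner Glyma.07G023000 (r = 0.95, with means of 99.7, 51.4, 20.0 and 20.8 CPM). Glyma.07G146800, annotated as a phospholipid/glycerol acyltransferase, had an r of 0.94 with YABBY and shared its level stretch after 14:00, with means of 95.9, 33.4, 8.36 and 7.95 CPM. PIP2;4 was most like Glyma.19G114500 (r = 0.92), with 116, 373, 281 and 208 CPM, and PHNP had the loosest match, Glyma.13G312000 (r = 0.90). These likenesses come from points that share time of day, plot and library, and they describe courses only.

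PRR5, the clock gene and the hub left out here, was at 38.3, 2.71, 49.2 and 56.7 CPM in plots 1 to 4 at 8:00 and at 10.8, 7.61, 10.5 and 6.48 CPM at 17:00, and its 8:00 library of plot 2 stood far below the other 3. Without that library the hubs called between time points were still 6 and those called between plots 2, and SHN2 was no longer called for 11:00 against 8:00.

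Some genes with the same annotation as a hub were examined after their values had been seen, since the annotation used here covered only genes that varied strongly among plots. A second PIP2 aquaporin gene, Glyma.10G211000, had means of 211 ± 150, 312 ± 172, 127 ± 43.2 and 77.2 ± 45.8 CPM in the order of the day (SD, n = 4 each), and it was highest at 11:00 in all 4 plots, as PIP2;4 was in 3. For 11:00 against 8:00 this gene did not pass (log2 fold change 0.67, edgeR adjusted p = 0.231), though it was higher in 4 of 4 plots. It was lowest at 17:00 in all 4 plots, where PIP2;4 was lowest at 8:00. For YABBY, 3 further genes annotated as axial regulator YABBY, Glyma.01G029300, Glyma.04G094800 and Glyma.06G096500, had 0 to 1.96 CPM and were not called between time points (edgeR adjusted p of 0.189, 0.714 and 0.315) or between plots. A second SHINE-annotated gene, Glyma.04G067200, had 0 to 2.45 CPM and was likewise not called between time points (edgeR adjusted p = 0.280) or between plots (0.0737). In these 4 genes the values of a given hour ranged widely among plots, as the way they were found implies. Such a spread also makes a call between time points harder to reach.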

How the data were processed

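Reads came from TruSeq libraries of polyA RNA. The authors trimmed them with Trimmomatic, aligned them to the Williams 82 soybean genome with TopHat and deposited raw counts per gene made with HTSeq-count. No source used here gives the strand setting or the treatment of reads that fit several genes, so counts of near-identical copies, which are common in soybean, are uncertain. The analysis of the counts ran under R 4.3.3, in edgeR 4.0.16 (TMM, quasi-likelihood test, time point and plot in the model, Benjamini-Hochberg adjustment over all genes); limma 3.58.1 and DESeq2 1.42.0 served as alternatives. Genes with under 8 counts in every library were left out, which kept 36059 of 56044 genes and all 6 hubs. Each SE was derived from F, as the size of the log2 fold change over the root of F, and is approximate. Log2 CPM used a prior count of 1. Intervals (95%, exact) and floors of 3 counts cover counting error only.

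Replicate numbers are plots, each sampled on 1 day, and the study treated plot as a repeated measure. Deviations from the time point means had a median r of 0.242 over 24 pairs of libraries of the same plot, against -0.0703 over 72 pairs of another plot and time, and 15 of 16 libraries were closest to their own plot. The lowest chi-square per gene between libraries of a time point was 17.7, so none was counted as a copy. The tests were checked on simulated data with the same spread for every gene, no differences among plots and changes only in genes of at least 1 CPM. That check does not cover PHNP and SHN2, whose means lay below 1 CPM, or the comparison of plots.

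The hub genes and all lists were chosen with earlier results of these data known. Named genes were the hubs, PRR5, genes linked to more than 1 hub and the 3 genes most like each hub, of which those described here are a selection; genes sharing a hub's annotation and single partners were added after their values were seen. The reference gene table matched 0 of the loci, so no sequence, closest paralogue, family or pathway list, or seed and nodule marker is given. That table puts the gene it calls PIP2-4 on chromosome 12, while the hub's locus lies on chromosome 11; the name PIP2;4 follows the study.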

Additional observations from a re-analysis of the deposited data

Results flagged for a closer look

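In 9 of 48 groups of 4 libraries examined, 1 library lay far from the others by Dixon's criterion. The groups were the hubs, PRR5 and the genes sharing a hub's annotation, each at each time point. Chance alone gives about 5% of groups. The genes sharing an annotation were available only because they varied strongly among plots, so the total of 9 cannot be set against that rate. Among the hubs, a far library was that of SHN2 in plot 4 at 14:00, at 0.116 CPM, with the nearest library at 0.246 CPM. The other was that of LRRNT_2 in plot 4 at 8:00, at 10.4 CPM, with the nearest at 11.5 CPM. For PRR5 it was plot 1 at 14:00, at 42.5 CPM. Among the genes sharing an annotation, plot 2 was far above the rest at 14:00 for the YABBY-annotated Glyma.01G029300 (1.501 CPM) and Glyma.06G096500 (0.751 CPM) and for the SHINE-annotated Glyma.04G067200 (0.590 CPM), which was also high in plot 2 at 8:00 (2.45 CPM) and at 0 CPM in plot 4 at 17:00. The PIP2 aquaporin gene Glyma.10G211000 stood apart in plot 1 at 8:00, at 435 CPM, with the nearest library at 145 CPM.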

How the results depend on the processing

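Of 426 log2 fold changes of the hubs between time points recomputed under the alternatives, 392 kept their direction and their side of the threshold, 29 kept their direction but no longer passed, 1 newly passed (PHNP for 17:00 against 14:00 in DESeq2) and 4 turned round, none of them called in either case: PHNP for 14:00 against 8:00 without plot 3 (0.0733; -0.79 to 0.0733 over the 4 plots left out in turn), PIP5K for 14:00 against 11:00 with library totals (0.0295) and YABBY for 17:00 against 14:00 without plot 1 (-0.13) and without plot 2 (-0.08; -0.13 to 0.33 over the plots); the cause was not tested. With no replicate block, that is without plot in the model, hubs past the strict threshold numbered 3 in place of 5 and hubs called for 14:00 against 11:00 numbered 1 in place of 3, and 11090 genes in all were called between time points, against 12200; all other counts of hubs stayed within 1.5 times of the main value without the block. Leaving out each plot in turn gave 1 to 4 hubs past the strict threshold, 1 to 2 for 14:00 against 11:00, 2 to 3 for 17:00 against 14:00, 0 to 2 between plots, 5 to 6 between time points and 93 of 93 partners. The 0 between plots was without plot 4, where 1 of 6 hubs had an unadjusted p under 0.05; the number of all genes called between plots was then 350, against 2275, and 1253 without plot 1 and 1511 without plot 2. The cause was not tested, beyond fewer libraries being used. Of PRR5 and the genes linked to more than 1 hub, 92 of 95 recomputed log2 fold changes for 17:00 against 8:00 kept direction and call. Library totals in place of TMM moved the median log2 fold change of all genes for 17:00 against 8:00 to 0.33, against 0.06 with TMM. PHNP gave no value under a filter of 1 CPM in at least 4 libraries. The alternatives for family and pathway lists were not run. PHNP and SHN2 rest on few reads.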
